A study of Mus musculus with 6 samples.

Results

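The genes described here are the STAT transcription factors *Stat2*, *Stat3*, *Stat4*, *Stat5a*, *Stat5b* and *Stat6* and the feedback inhibitors *Socs1*, *Socs2* and *Socs3*. They were chosen by name, and all 9 were among the 18506 genes tested by bulk RNA-seq. The cells were bone marrow–derived macrophages (BMDMs), which are bone marrow cells grown into macrophages. Per the labels they were grown with 10% medium from L929 cells, a fibroblast line that secretes M-CSF. Both groups were exposed to hypoxia and serum starvation (HSS), a culture model of ischemia, for 8 hours on day 7 of culture, at 2.1% oxygen, with 3 libraries per group. *Drp1* KO BMDMs came from LysM-Cre+/- Drp1 fl/fl mice, in which Cre under the lysozyme M promoter deletes the gene of DRP1, a GTPase of mitochondrial fission, in myeloid cells. WT BMDMs came from LysM-Cre+/- Drp1+/+ mice, so both groups carried Cre. The mice were of both sexes and 8 to 12 weeks old, and marrow of 2 mice per genotype was pooled. No source used here says whether the 3 libraries of a genotype came from separate pools, so the p-values measure the spread between these libraries, which may be technical. All libraries used here were made after HSS, so the values compare genotypes under HSS and do not show a response to it.

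STAT proteins are latent transcription factors that Janus kinases (JAKs) phosphorylate at cytokine receptors, after which they form dimers, enter the nucleus and bind DNA. STAT2 acts with IRF9 in the complex that type I interferons activate, STAT3 acts below IL-6 and IL-10, STAT4 below IL-12, STAT5A and STAT5B below GM-CSF and other growth factors, and STAT6 below IL-4 and IL-13. The SOCS genes are induced by STATs, and their proteins bind receptors or JAKs and shut the signal off. RNA levels do not show whether a STAT protein was phosphorylated.

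The libraries held 23389488 to 32231206 estimated reads. *Dnm1l*, the gene of DRP1, ranged from 69.9 to 75.1 CPM (counts scaled to the size of the library) among WT libraries and from 58.7 to 66.3 CPM among those of *Drp1* KO, with an adjusted p of 0.248 in edgeR's quasi-likelihood test, and a count over the whole gene does not separate deleted from intact exons. Of 8 macrophage markers all were detected, and their summed level was 13412 to 14811 CPM in WT and 11993 to 14417 CPM in *Drp1* KO. Among the 3 that passed an adjusted p of 0.05, against 3.36% of all genes tested, *Fcgr1* was higher and *Csf1r* and *Mertk* lower in *Drp1* KO.

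The sequence before the start of the most abundant transcript is shown for the 3 genes with the largest fitted increase and for *Stat4*, which had a match like that of *Stat2*. Each is the 300 bases upstream of the start on the gene's strand in GRCm39, written 5′ to 3′, and capitals mark the motifs found. The motifs were the core of the interferon-stimulated response element, GAAANNGAAA or TTTCNNTTTC on the other strand, the gamma-activated sequence TTCNNNGAA, and its variant with a longer spacer, TTCNNNNGAA, which STAT6 is known to bind. *Stat2* lies at chr10:128106352-128128735 on the plus strand, and its window is chr10:128106052-128106351. *Stat4* lies at chr1:52026307-52151423 on the plus strand, with its window at chr1:52047102-52047401. *Socs1* lies at chr16:10600104-10603875 on the minus strand, with its window at chr16:10603876-10604175. *Socs3* lies at chr11:117856905-117860898 on the minus strand, with its window at chr11:117860124-117860423.
Stat2: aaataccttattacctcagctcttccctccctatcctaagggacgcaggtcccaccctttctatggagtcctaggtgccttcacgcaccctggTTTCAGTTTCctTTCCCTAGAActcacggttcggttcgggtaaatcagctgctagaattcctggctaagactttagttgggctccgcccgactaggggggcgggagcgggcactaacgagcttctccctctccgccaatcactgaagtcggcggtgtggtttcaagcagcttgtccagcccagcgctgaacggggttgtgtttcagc
Stat4: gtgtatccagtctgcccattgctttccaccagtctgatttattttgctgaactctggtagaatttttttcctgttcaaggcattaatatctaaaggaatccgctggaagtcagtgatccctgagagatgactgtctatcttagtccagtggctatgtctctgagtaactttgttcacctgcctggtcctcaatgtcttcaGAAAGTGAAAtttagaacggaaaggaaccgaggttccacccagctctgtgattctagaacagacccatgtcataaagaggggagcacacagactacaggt
Socs1: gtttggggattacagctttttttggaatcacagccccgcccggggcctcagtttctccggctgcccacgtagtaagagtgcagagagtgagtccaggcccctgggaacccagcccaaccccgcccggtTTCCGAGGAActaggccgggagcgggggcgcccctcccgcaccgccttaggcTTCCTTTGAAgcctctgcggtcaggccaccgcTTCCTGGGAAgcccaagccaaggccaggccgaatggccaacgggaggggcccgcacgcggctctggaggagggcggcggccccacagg
Socs3: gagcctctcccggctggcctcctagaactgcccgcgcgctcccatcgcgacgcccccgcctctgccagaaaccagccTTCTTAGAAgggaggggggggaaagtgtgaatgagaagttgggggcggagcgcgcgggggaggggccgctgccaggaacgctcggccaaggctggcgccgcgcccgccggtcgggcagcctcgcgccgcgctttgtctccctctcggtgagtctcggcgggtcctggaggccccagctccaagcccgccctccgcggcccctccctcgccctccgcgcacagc

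The *Stat2* window held 1 interferon-stimulated response core, which began 207 bases before the start, and 1 spacer variant 195 bases before it. The *Stat4* window held 1 such core 100 bases before the start. Among the windows of all 18506 genes tested, 4.13% held this core, and 2 of the 9 STAT and SOCS windows did. The *Socs3* window held 1 gamma-activated sequence 223 bases before the start, as did 8.12% of all windows. *Socs1* held the spacer variant 3 times, 172, 120 and 88 bases before the start, and 7.00% of all windows held it. The windows of *Stat3*, *Stat5a*, *Stat5b*, *Stat6* and *Socs2* held none of the 3, and that of *Socs2* belonged to a transcript with a retained intron. No matches overlapped. In the RefSeq windows of GRCm38.p6, which include the first bases of the transcript and where 8 of the 9 genes were matched, the response core was found for *Stat2*, *Stat4* and *Socs1*, the gamma-activated sequence for *Socs3*, and the spacer variant for *Stat2* but not for *Socs1*. A match describes the letters in the window and is not evidence of binding.

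**Figure D1:**
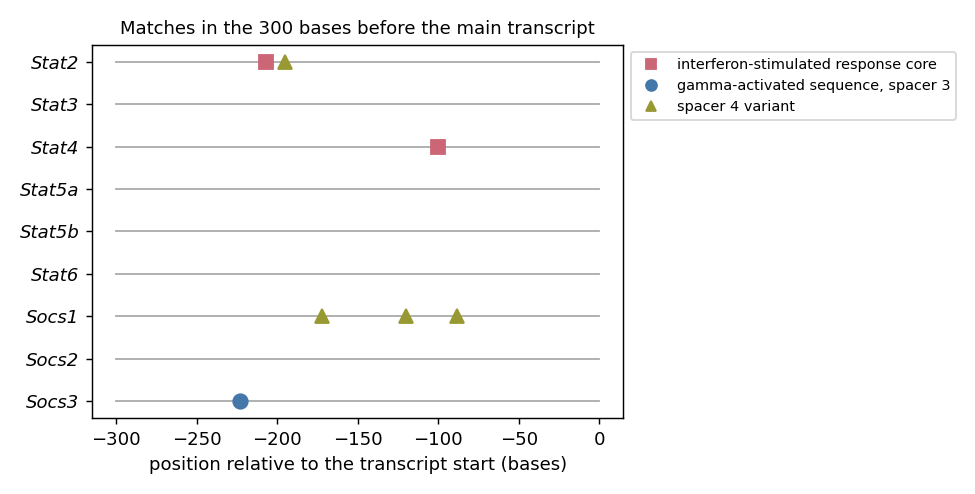
Position of the motif matches in the 300 bases before the main transcript of each gene, on an axis of bases relative to the transcript start. Squares mark the interferon-stimulated response core (*Stat2* at 207 and *Stat4* at 100 bases before the start), the circle the gamma-activated sequence of *Socs3*, and triangles its variant with a longer spacer in *Stat2* and *Socs1*.

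*Stat2* was the STAT gene that passed the test between the genotypes. It rose 2.51-fold in *Drp1* KO BMDMs, while the fitted log2 fold changes of the 5 other STAT genes lay between -0.03 and 0.32, where a positive value is higher in *Drp1* KO. Of the SOCS genes, *Socs1* and *Socs3* had fitted log2 fold changes of 1.33 and 1.32 and *Socs2* of -0.94. At a Benjamini-Hochberg adjusted p under 0.05, 1 of the 9 genes passed edgeR's quasi-likelihood test, against 3.36% of all genes tested, with 2.29% higher and 1.06% lower in *Drp1* KO. A looser criterion, a log2 fold change over 0.32 in either direction with an unadjusted p under 0.05, was passed by 4 of the 9 genes, *Stat2*, *Socs1* and *Socs3* as higher and *Socs2* as lower, against 12.7% of all genes, 7.19% higher and 5.48% lower. In 3 of the 9 genes, *Stat2*, *Socs1* and *Socs3*, the libraries of the groups did not overlap, against 21.9% of all genes. The median log2 fold change of the 9 genes was 0.19, and that of all genes tested was 0.00. With the replicate block, which pairs the libraries by their labelled numbers, 2 of the 9 genes, *Stat2* and *Socs3*, passed the adjusted p, against 12.0% of all genes. In these bulk libraries, a change in the share of cells that express a gene and a change in RNA per cell cannot be told apart.

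**Figure D2:**
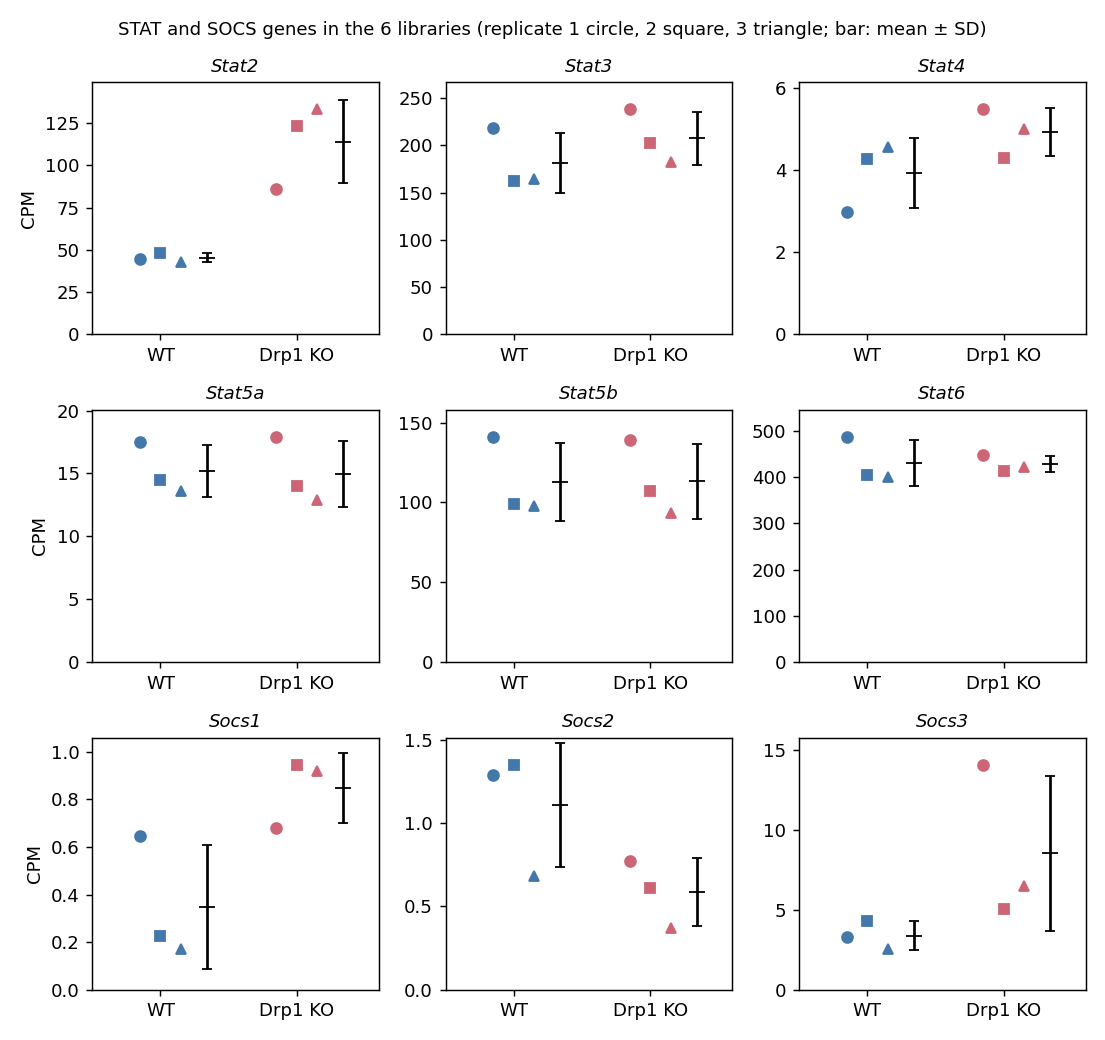
CPM of the 9 STAT and SOCS genes in each of the 3 WT and 3 *Drp1* KO libraries, with the mean and SD as a black bar and each vertical axis starting at 0. *Stat2* lay between 43.0 and 48.4 CPM in WT and between 86.0 and 133 in *Drp1* KO, and *Stat6* between 400 and 487 in WT and between 414 and 448 in *Drp1* KO.

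**Figure D3:**
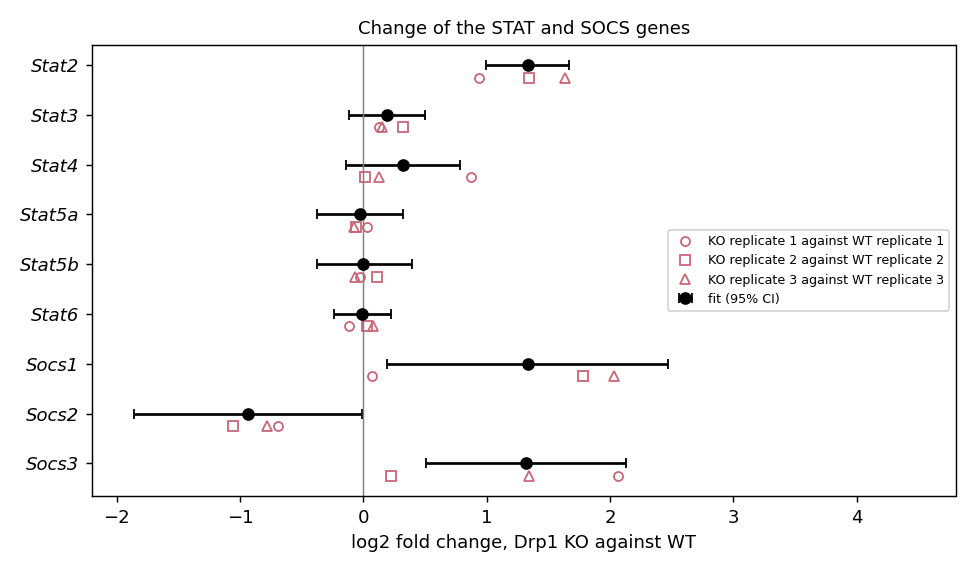
Log2 fold change of each gene, *Drp1* KO against WT, as fitted (black, with its 95% confidence interval) and for each pair of libraries with the same replicate number (open symbols). The 3 pairs of *Stat2* lie between 0.94 and 1.63, those of *Socs3* between 0.22 and 2.06, and those of *Stat6* between -0.12 and 0.08.

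*Stat2*, which carries the transactivation domain of the interferon-activated complex, had 44.8, 48.4 and 43.0 CPM in the 3 WT libraries and 86.0, 123 and 133 CPM in the 3 *Drp1* KO libraries. The groups did not overlap, and the lowest *Drp1* KO library was above the highest WT library by 37.6 CPM. The WT mean was 45.4 ± 2.75 CPM and the *Drp1* KO mean 114 ± 24.8 CPM (SD, n = 3 each), so the spread was wider in *Drp1* KO. The log2 fold change was 1.33 with an SE of 0.152 and a 95% interval of 0.99 to 1.67 (edgeR quasi-likelihood test, adjusted p = 0.00124). Under the 14 alternative settings the log2 fold change ran from 1.11 to 1.49 and the adjusted p from 6.23e-13 to 0.0127. The pairs with the same number gave log2 ratios of 0.94, 1.34 and 1.63. Most of its reads were assigned to a coding transcript, Stat2-201, with 82.5% to 86.7% in WT and 85.6% to 92.2% in *Drp1* KO, and these shares overlapped (exact two-sided permutation p = 0.3). As shares of TPM they did not overlap, with 51.1%, 45.8% and 43.6% in WT and 54.0%, 64.6% and 53.3% in *Drp1* KO libraries (exact two-sided permutation p = 0.1, the smallest that 3 against 3 libraries can give).

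*Socs3* and *Socs1*, the inhibitors of signals that pass through gp130 and the interferon receptors, were both low in these BMDMs. *Socs3* had 3.32, 4.31 and 2.52 CPM in WT and 14.1, 5.04 and 6.47 CPM in *Drp1* KO libraries. *Drp1* KO library 1 was the highest, and the lowest *Drp1* KO library was 0.731 CPM above the highest WT library. Its log2 fold change was 1.32 with an SE of 0.363 (edgeR adjusted p = 0.0863), which missed the threshold, and with the replicate block it was 1.22 with an SE of 0.275 and passed (edgeR adjusted p = 0.0162). Without *Drp1* KO library 1 the log2 fold change was 0.76. It also passed with DESeq2 (adjusted p = 0.00416) and with a minimum of 1 count in edgeR (adjusted p = 0.00394).

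*Socs1* was counted 15, 6 and 5 times in WT and 15, 31 and 30 times in *Drp1* KO libraries, which is 0.647, 0.225 and 0.170 CPM against 0.681, 0.947 and 0.920 CPM. WT library 1 was nearly as high as *Drp1* KO library 1, and WT libraries 2 and 3 were below all *Drp1* KO libraries. The log2 ratios of the pairs were 0.07, 1.78 and 2.03. The fitted log2 fold change was 1.33 with an SE of 0.513 (edgeR unadjusted p = 0.0268, adjusted p = 0.225). Without WT library 1 it was 2.10 and passed (edgeR adjusted p = 0.0432). A count of 3, taken as the floor, is 0.0917 to 0.136 CPM, so the lower WT values lie close to it.

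*Socs2*, which is known as the inhibitor of growth hormone signaling, had 1.29, 1.35 and 0.681 CPM in WT and 0.772, 0.611 and 0.368 CPM in *Drp1* KO libraries. WT library 3 lay below *Drp1* KO library 1, so the groups overlapped. The log2 ratios of the numbered pairs were -0.69, -1.06 and -0.78. The fitted log2 fold change was -0.94 with a 95% interval of -1.86 to -0.01 (edgeR unadjusted p = 0.0482, adjusted p = 0.299). Its reads were spread over 14 transcripts, and the coding transcripts took between 36.3% and 60.1% of them. The transcript with most reads, Socs2-206, retains an intron, and the coding transcript Socs2-201 was listed at 0 in WT library 3 and in all 3 *Drp1* KO libraries. At 12 to 36 counts per library, these shares are poorly determined.

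The other STAT genes had small fitted differences, and none passed the adjusted p. *Stat3* had 218, 162 and 164 CPM in WT and 238, 202 and 182 CPM in *Drp1* KO libraries. Each *Drp1* KO library was above the WT library with its number, with log2 ratios of 0.13, 0.32 and 0.15, but the groups overlapped. The log2 fold change was 0.19 with a 95% interval of -0.12 to 0.50 (edgeR adjusted p = 0.573), and without WT library 1 it was 0.34 (edgeR adjusted p = 0.171) and met the looser criterion. *Stat4*, the STAT of the IL-12 response, had 2.98, 4.27 and 4.57 CPM in WT and 5.49, 4.31 and 5.0 CPM in *Drp1* KO libraries, with a log2 fold change of 0.32 and an interval of -0.14 to 0.78. *Stat6* had 487, 405 and 400 CPM in WT and 448, 414 and 422 CPM in *Drp1* KO libraries, and its interval, -0.24 to 0.22, was the narrowest. *Stat5b* had 141, 99.3 and 97.9 CPM in WT and 139, 107 and 93.6 CPM in *Drp1* KO libraries. Its log2 fold change was 0.00 with an interval of -0.38 to 0.39. *Stat5a* had 17.5, 14.5 and 13.6 CPM in WT and 17.9, 14.0 and 12.9 CPM in *Drp1* KO libraries, and its interval was -0.38 to 0.32. For *Stat3*, *Stat5a*, *Stat5b* and *Stat6*, library 1 was the highest of its genotype in both groups. All 5 of these 95% intervals lay within a 2-fold change in either direction.

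The levels of the 9 genes were ordered by TPM, a scale that corrects for transcript length. By the mean TPM over the 6 libraries the order was *Stat6* (146), *Stat3* (80.1), *Stat5b* (65.3), *Stat2* (38.2), *Stat5a* (5.10), *Stat4* (2.70), *Socs3* (2.52), *Socs2* (0.667) and *Socs1* (0.237). The ranges of the libraries did not overlap between *Stat6* and *Stat3*, *Stat2* and *Stat5a*, or *Stat5a* and *Stat4*. All other neighbours in the order overlapped. *Stat4* was above *Socs3* in the WT mean, at 2.64 against 1.49 TPM, and below it in the *Drp1* KO mean, at 2.77 against 3.54 TPM. By library it was above *Socs3* in 5 of 6. Over coding transcripts alone, the mean of *Socs3*, 2.52 TPM, was above that of *Stat4*, 2.37 TPM. *Stat2* had 25.1 ± 2.27 TPM in WT and 51.2 ± 13.4 TPM in *Drp1* KO (SD, n = 3 each) and was the fourth by the mean in both genotypes, below *Stat5b* at 64.7 ± 16.9 and 65.9 ± 12.1 TPM. Much of the *Stat5b* TPM sat on Stat5b-203, a transcript of 727 bases with no defined coding sequence, which took 64.3% of it in WT and 68.3% in *Drp1* KO on average. Over coding transcripts alone, *Stat5b* had 21.8 TPM and *Stat2* 20.5 TPM on average over the 6 libraries. On that scale *Stat2* had 11.7 ± 0.483 TPM in WT and 29.3 ± 7.56 TPM in *Drp1* KO, and *Stat5b* had 22.8 ± 3.90 and 20.8 ± 3.51 TPM, so that *Stat2* was above *Stat5b* in 0 of 3 WT and 2 of 3 *Drp1* KO libraries.

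For *Stat3* and *Stat5b*, the shares of reads assigned to the main transcripts did not overlap between the genotypes. Stat3-203, the transcript with most reads, held 62.5%, 58.2% and 58.9% of *Stat3* reads in WT and 68.4%, 67.0% and 65.7% in *Drp1* KO libraries. Stat3-201 held 34.2%, 34.5% and 35.5% in WT and 27.9%, 25.6% and 27.5% in *Drp1* KO. Neither pair of groups overlapped, and each difference had an exact two-sided permutation p of 0.1, the smallest that 3 against 3 libraries can give. As shares of TPM the groups overlapped for both, with differences of 6.1 points for Stat3-203 and -7.1 points for Stat3-201 (exact two-sided permutation p = 0.4 and 0.2). In GENCODE these transcripts differ in the 3′ end of 1 exon on the minus strand, chr11:100783903-100784112 in Stat3-201 and chr11:100783900-100784112 in Stat3-203, so that the coding sequence is 3 bases longer in Stat3-203, 2310 against 2307 bases. The deposited lengths were 2927 bases for Stat3-201 and 4516 bases for Stat3-203, shorter than the 6286 and 6289 bases in GENCODE, so the shares also depend on the ends that the authors' index gave them.

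For *Stat5b*, Stat5b-202 held 39.6%, 48.3% and 51.2% of the reads in WT and 52.1%, 54.8% and 57.4% in *Drp1* KO libraries. Stat5b-201 held 41.4%, 36.3% and 32.3% in WT and 27.4%, 25.8% and 22.5% in *Drp1* KO, where it was lower by 11.4 percentage points in the mean (36.7% ± 4.53 and 25.2% ± 2.51, SD, n = 3 each, exact two-sided permutation p = 0.1). As shares of TPM, the difference was -5.7 points for Stat5b-201, where the groups did not overlap, and for Stat5b-202 it was 1.7 points in place of 8.4, where they did overlap. Without WT library 1, the difference of Stat5b-202 in shares of reads was 5.0 points. Both transcripts encode the same 2358 bases and differ in their first exon, chr11:100741225-100741583 in Stat5b-201 and chr11:100712878-100713421 in Stat5b-202, on the minus strand. In CPM, the groups overlapped for both transcripts, while within the numbered pairs Stat5b-201 was lower and Stat5b-202 higher in *Drp1* KO in 3 of 3. Stat5b-201 had 58.5, 36.0 and 31.7 CPM in WT and 38.0, 27.6 and 21.0 CPM in *Drp1* KO, and Stat5b-202 had 56.1, 47.9 and 50.1 CPM in WT and 72.4, 58.7 and 53.8 CPM in *Drp1* KO. Among the 5 STAT genes with at least 2 transcripts and 100 counts in each library, the share of the most abundant transcript did not overlap between the groups in 3, *Stat3*, *Stat5b* and *Stat6*, against 22.5% of 8501 such genes. In *Stat6* the share was over 99% in every library.

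**Figure D4:**
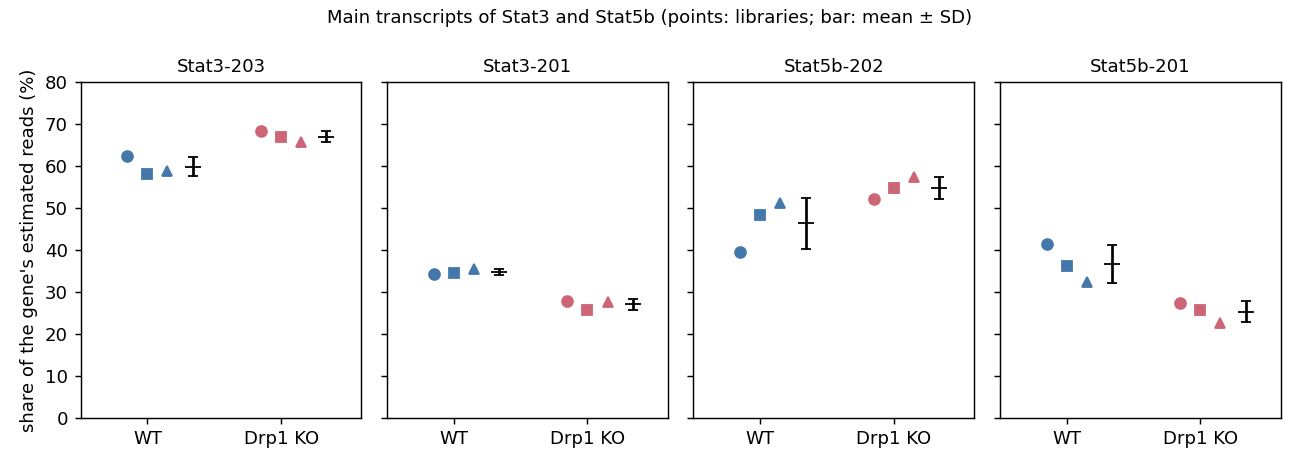
Share of the gene's estimated reads (in percent) assigned to the 2 most abundant transcripts of *Stat3* and of *Stat5b*, with 1 point per library and the mean and SD as a black bar. Stat3-201 lies between 34.2% and 35.5% in WT and between 25.6% and 27.9% in *Drp1* KO, and Stat5b-201 between 32.3% and 41.4% and between 22.5% and 27.4%.

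The values of some genes rest on reads that could be assigned in more than 1 way. *Stat5a* and *Stat5b* are neighbours 8587 bases apart on chromosome 11, and 21.0% of the 31-base words of the main *Stat5a* transcript and 15.9% of those of the main *Stat5b* transcript also occur in the other gene, so part of their reads was divided between them by the quantification. *Stat5a* (chr11:100750177-100776065, plus strand) overlaps the end of *Stat3* (chr11:100775924-100830450, minus strand) by 142 bases. The libraries were made with a stranded kit per the labels, but whether the quantification used strand is not given in the sources used here, and 1.79% of the words of the main *Stat3* transcript occur in *Stat5a* on the opposite strand. No other pair of the 9 genes shared such words.

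*Stat2* was compared with the genes that its complex is known to induce. A list of 14 such genes was chosen with interferon results of these data known, so its direction is not independent evidence. All 14 were higher in *Drp1* KO at an adjusted p under 0.05, with a median log2 fold change of 2.06, and in all 14 the groups did not overlap. Of all genes tested, 2.29% were higher at that threshold and 21.9% did not overlap. *Usp18*, an inhibitor of the interferon receptor, had 6.08, 6.78 and 3.92 CPM in WT and 40.0, 53.6 and 55.6 CPM in *Drp1* KO libraries, with a log2 fold change of 3.16 (edgeR adjusted p = 0.000197). The antiviral genes *Mx1*, *Ifi44* and *Rsad2* had log2 fold changes of 1.78, 2.82 and 2.06. *Irf9*, the DNA-binding partner of STAT2 and named after its values were seen, had 49.0, 41.6 and 40.1 CPM in WT and 76.3, 92.0 and 89.5 CPM in *Drp1* KO libraries, with a log2 fold change of 0.98 (edgeR adjusted p = 0.00149). The log2 fold change of *Stat2*, 1.33, thus stood between those of *Irf9* and most of the other 13 genes. The genes whose values over the 6 libraries were nearest to those of *Stat2*, among 12241 genes that averaged 1 CPM or more, were *Trim30d*, *Slfn3* and *Slfn5*, with root mean square differences of log2 CPM of 0.0654, 0.0952 and 0.108 after each gene was centred on its WT mean. *Trim30d* had 35.6, 33.7 and 31.7 CPM in WT and 63.9, 89.5 and 105 CPM in *Drp1* KO libraries.

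**Figure D5:**
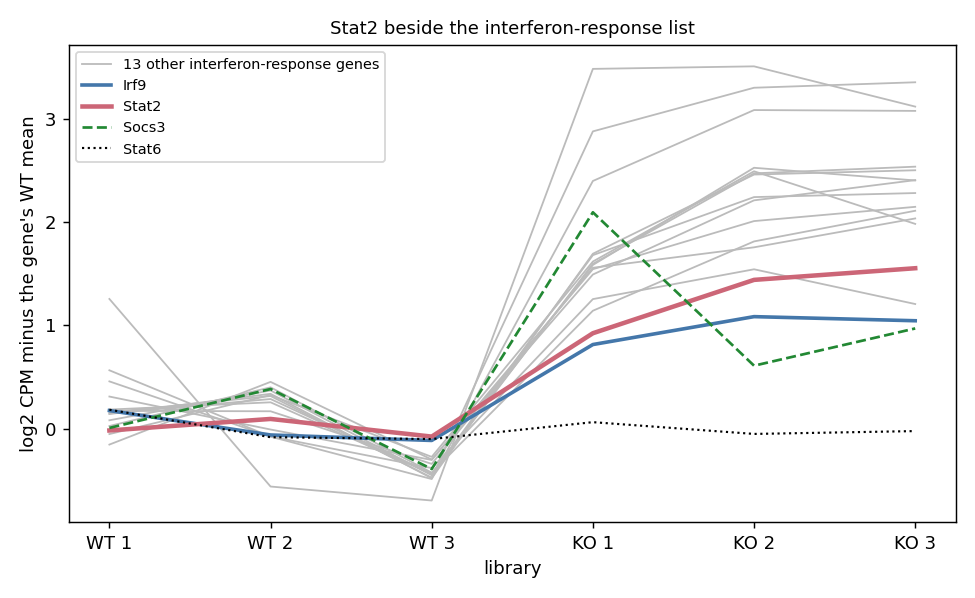
Log2 CPM of each gene in the 6 libraries after subtraction of its own WT mean, for *Stat2*, *Irf9*, *Socs3*, *Stat6* and the 13 other genes of the interferon-response list (grey). Lines join the values of 1 gene and the order of libraries within a group has no meaning; in *Drp1* KO library 1 *Stat2* is at its lowest of that genotype and *Socs3* at its highest.

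Among genes known to respond to STAT3, 2 of 11 were higher in *Drp1* KO and none lower at an adjusted p under 0.05 in the unpaired fit, against 2.29% of all genes higher and 1.06% lower, and 3 of 11 passed with the replicate block (12.0% of all genes). The added gene was *Pim1* (edgeR adjusted p = 0.0101), named after its values were seen. *Fcgr1*, the high-affinity receptor for IgG and also a macrophage marker, had a log2 fold change of 1.34 (edgeR adjusted p = 0.000322). *Il1rn*, the IL-1 receptor antagonist, had a log2 fold change of 0.78 (edgeR adjusted p = 0.0322), which missed the threshold under 6 of the 14 alternative settings. The median of this list was near 0. Of 8 genes known to respond to STAT5, *Ccnd2*, a cyclin of the G1 phase, passed with 1.03, 1.31 and 0.988 CPM in WT and 7.67, 6.17 and 4.69 CPM in *Drp1* KO libraries and a log2 fold change of 2.46 (edgeR adjusted p = 0.000635). With the replicate block, 5 of the 8 passed, all higher: *Ccnd2*, *Pim1*, *Ccnd1*, *Il2ra* and *Bcl6*, of which the last 4 are named here after their values were seen. *Osm*, *Pim1* and *Cish* in this list stand in other lists too. Of 11 tested genes known to respond to STAT6, *Mrc1*, the mannose receptor, was lower, with a log2 fold change of -0.42 (edgeR adjusted p = 0.0407). It missed the threshold under 6 of the 14 settings. With the replicate block, 4 of the 11 were lower and 2 higher. For the STAT5 and STAT6 lists too, the shares of all genes were 3.36% in the unpaired fit and 12.0% with the replicate block.

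Genes upstream of the STATs were read from the same fits. Of the 4 JAK genes none passed the adjusted p in edgeR, DESeq2 or limma-voom, and 1 had an unadjusted edgeR p under 0.05. Of all genes, 3.36% passed in edgeR, 8.80% of the 13119 with an adjusted p in DESeq2 and 3.37% in limma-voom, and 16.4% had an unadjusted edgeR p under 0.05. *Jak1* had a WT mean of 336 ± 15.2 CPM and a *Drp1* KO mean of 312 ± 39.8 CPM (SD, n = 3 each). *Jak2* had 63.4, 71.7 and 67.0 CPM in WT and 80.1, 81.0 and 80.7 CPM in *Drp1* KO libraries, with a log2 fold change of 0.26 (edgeR adjusted p = 0.172) that passed with the replicate block (edgeR adjusted p = 0.0460). Of 24 cytokine receptor genes, *Il7r*, the receptor of IL-7, passed, with 316, 304 and 313 CPM in WT and 555, 455 and 454 CPM in *Drp1* KO libraries and a log2 fold change of 0.65 (edgeR adjusted p = 0.00883). It missed the threshold without WT library 2 (edgeR adjusted p = 0.0862) or WT library 3 (edgeR adjusted p = 0.0661). With the replicate block *Il21r* passed beside it (edgeR adjusted p = 0.0210), and it is named after its values were seen. These are 1 of 24 genes against 3.36% of all genes in the unpaired fit, and 2 of 24 against 12.0% with the replicate block. Of the 4 JAK genes, 1 passed with the replicate block, against the same 12.0%.

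Of 18 cytokine ligand genes, 10 had enough counts to be tested, and none passed in edgeR, DESeq2 or limma-voom, while 2 had an unadjusted edgeR p under 0.05, against 3.36% of all genes past the adjusted edgeR p and 16.4% past the unadjusted one. *Il15* had 57.4, 60.8 and 60.1 CPM in WT and 57.1, 91.2 and 82.4 CPM in *Drp1* KO libraries, with a log2 fold change of 0.37 (edgeR adjusted p = 0.253), and without *Drp1* KO library 1 it was 0.54 and passed (edgeR adjusted p = 0.0144). *Il10*, named after its values were seen, was beside *Il15* past the unadjusted p. It had 1.16, 1.24 and 0.852 CPM in WT and 1.36, 1.80 and 2.36 CPM in *Drp1* KO libraries. Its log2 fold change was 0.78 (edgeR unadjusted p = 0.0291, adjusted p = 0.236), and its groups did not overlap, as in 21.9% of all genes. *Osm*, a ligand of the gp130 family, had 6.90, 4.76 and 5.28 CPM in WT and 9.40, 6.11 and 5.24 CPM in *Drp1* KO. The type I interferon genes *Ifnb1*, *Ifna1* and *Ifna4*, named here after their values were seen, had 0 counts in all WT libraries, and *Ifnb1* had 5 counts in *Drp1* KO library 3 and 0 in the other libraries, too few to test.

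Other inhibitors of the pathway were measured as well. None of the 5 other SOCS family genes passed in edgeR, DESeq2 or limma-voom, and 1 had an unadjusted edgeR p under 0.05, as had 16.4% of all genes. *Socs6* had 223, 150 and 172 CPM in WT and 203, 166 and 147 CPM in *Drp1* KO libraries, and *Socs4* had 59.5, 53.9 and 61.4 CPM in WT and 63.2, 72.3 and 69.8 CPM in *Drp1* KO with a log2 fold change of 0.23 (edgeR adjusted p = 0.271). *Cish*, named after its values were seen, had 2.29, 2.62 and 2.69 CPM in WT and 4.04, 2.99 and 3.19 CPM in *Drp1* KO, with a log2 fold change of 0.42 (edgeR adjusted p = 0.367). The groups did not overlap in 3 of these 5 genes, with *Socs4* and *Cish* higher in every *Drp1* KO library and *Socs5* lower, and 21.9% of all genes did not overlap. Whether these differences differ from those of *Socs1* and *Socs3* was not tested. Of 9 genes of PIAS proteins and phosphatases, which bind STATs or remove their phosphate, none passed in edgeR, DESeq2 or limma-voom and 0 had an unadjusted edgeR p under 0.05. *Ptprc*, the gene of CD45, had a log2 fold change of 0.19, and *Ptpn6*, the gene of SHP-1, of -0.19.

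Neutrophil marker RNA differed between the genotypes in some of the fits only. Of 9 markers 6 were tested, and none passed in the unpaired edgeR fit or limma-voom, 2 passed in DESeq2, 4 had an unadjusted edgeR p under 0.05 and 4 passed with the replicate block, all higher in *Drp1* KO. The shares of all genes were 8.80% in DESeq2, 16.4% at the unadjusted p and 12.0% with the replicate block. Their summed level was 6.81, 19.0 and 21.1 CPM in WT and 20.5, 48.3 and 46.2 CPM in *Drp1* KO libraries. The sum was higher in the *Drp1* KO library of each numbered pair, but the groups overlapped, with *Drp1* KO library 1 below WT library 3. *S100a9*, a calcium-binding protein of neutrophil granulocytes, had 3.45, 10.2 and 12.1 CPM in WT and 10.9, 26.2 and 26.4 CPM in *Drp1* KO libraries, while *Ly6g* had 0 counts in all 6 libraries. The part of neutrophil RNA in the *Stat2*, *Socs1* and *Socs3* results was not tested. Lymphocyte markers summed to between 309 and 326 CPM in WT and between 126 and 251 CPM in *Drp1* KO, nearly all of it *Cd4*. Of the 6 tested markers, *Cd4*, *Cd3d* and *Ms4a1* were fitted as lower in *Drp1* KO, and *Cd8a*, *Cd3e* and *Cd79a* as higher. *Cd4* had 313, 319 and 303 CPM in WT and 137, 245 and 119 CPM in *Drp1* KO libraries, with a log2 fold change of -0.90 that missed the threshold in edgeR (adjusted p = 0.0595) and passed in DESeq2, limma-voom and with the replicate block (edgeR adjusted p = 0.00228). Its part in the STAT and SOCS results was not tested. Of the NK and cytotoxic cell markers in that list, *Ncr1* and *Gzma* had 0 counts in all 6 libraries, while *Klrb1c* had 6 counts and *Nkg7* 3 counts over the *Drp1* KO libraries and 0 in WT, too few to test. Dendritic cell and fibroblast markers summed to under 5 CPM in every library.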

How the data were processed

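BMDM RNA was measured in 6 libraries, 3 per genotype, each after 8 hours of HSS. The authors quantified reads with kallisto 0.46.1 on Ensembl cDNA of GRCm39 and deposited estimated counts and TPM per transcript. The submitters' notes also name DESeq2 1.44.0. The labels and the paper's methods differ in the oxygen level, the L929 medium share, the RNA extraction and the library kit. Transcripts were matched by identifier to GENCODE M39 (116159 of 116873), and 0.542% to 0.575% of counts lay on the rest. Estimated counts were summed per gene, rounded and tested with edgeR 4.0.16 in R 4.3.3: TMM, genes with at least 10 counts in total, quasi-likelihood test without covariates, Benjamini-Hochberg adjustment over 18506 genes. The test was checked on generated counts. CPM are TMM-scaled. TPM were summed per gene, and transcript shares are of estimated counts.

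Same-numbered libraries deviated together (r = 0.510, 0.204 and 0.298 over 12248 genes), above 0.1 in every pair, so the numbers were taken as a pairing in an alternative fit. The paper does not say whether same-numbered libraries share a pool or batch. WT library 2 correlated more with *Drp1* KO library 3 (0.326) than with library 2. The reported fit is unpaired, and the fit with the replicate block is an alternative. The other alternatives were DESeq2 1.42.0, limma-voom (limma 3.58.1), 2 other scalings, 2 other filters, length-scaled counts and leaving out each library. The second transcripts of *Stat3* and *Stat5b*, shares of TPM and shares with a library left out were added after the data were seen. Promoter windows were read from GRCm39 because the RefSeq windows given are of another build. The 9 genes and all lists were chosen with earlier results of these data known. Besides the 9, each list's genes with adjusted p under 0.05 were named (up to 4 by p), otherwise the 2 with the largest mean CPM, and the 3 genes nearest to *Stat2*. Genes named outside this rule, among them *Irf9*, *Socs5* and the cell type markers, were chosen after their values were seen.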

Additional observations from a re-analysis of the deposited data

How the results depend on the processing

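*Stat2* passed under all 14 alternatives, and the direction of *Stat3*, *Stat4*, *Socs1*, *Socs2* and *Socs3* was kept under all 14. With 1 of the 9 genes past the adjusted p in the unpaired fit, 2 passed with DESeq2, with a minimum of 1 count and with the replicate block (*Stat2* and *Socs3* in each), and 1 to 2 with a library left out, where the second was *Socs1* without WT library 1. The looser criterion was met by 4 genes, and by 2 to 4 with a library left out: by *Stat2* and *Socs3* alone without replicate 2 of WT or replicate 2 or 3 of *Drp1* KO, and by *Stat2*, *Stat3*, *Socs1* and *Socs3* without WT replicate 1, where *Stat3* entered and *Socs2* dropped out. *Socs2* did not meet it with DESeq2 or limma-voom. Over all genes, 621 passed the adjusted p, 1155 with DESeq2, 1065 with a minimum of 1 count, 2212 with the replicate block, and 181 (without WT library 2) to 904 (without *Drp1* KO library 1). WT library 3 and *Drp1* KO libraries 2 and 3 also lowered that count by over 1.5 times when left out, to 217, 268 and 348. Of the pathway genes in the other lists, 19 passed, 30 with the replicate block, and 15 to 19 with a library left out. The cause of these differences was not tested.

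Some genes that missed the threshold turned direction. With a library left out, the log2 fold change ran from -0.19 to 0.0780 for *Stat5a*, from -0.18 to 0.20 for *Stat5b*, from -0.0741 to 0.0862 for *Stat6*, from -0.23 to 0.0872 for *Socs6* and from -0.000214 to 0.46 for *Osm*. *Stat5b* was also at -0.00837 with DESeq2, -0.00854 with median-of-ratios factors, -0.00898 with library size only, -0.00952 with filterByExpr and -0.00490 with a minimum of 1 count. As shares of TPM, the *Stat5b* differences were smaller, 1.7 points for Stat5b-202 and -5.7 for Stat5b-201 (8.4 and -11.4 as shares of counts). Depth limits *Socs1* and *Socs2*, with at most 36 counts per library.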
